A study of Homo sapiens with 8 samples.

Results

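The m6A reader genes are the 10 genes YTHDF1, YTHDF2, YTHDF3, YTHDC1, YTHDC2, IGF2BP1, IGF2BP2, IGF2BP3, HNRNPA2B1 and HNRNPC, chosen by name as genes whose proteins are described as binding RNA that carries N6-methyladenosine (m6A). All 10 were found among the 27996 genes of the expression table. They carried 27 of the 38834 m6A peaks listed for HL60/ADR and 30 of the 40550 listed for HL60. HL60/ADR is an Adriamycin-resistant derivative of the human promyelocytic leukemia cell line HL60. It was selected by rising doses of Adriamycin (doxorubicin) up to 0.5 μg/ml, and the drug was taken away a week before the experiments. HL60 is the parental line, grown in the same medium. In MeRIP-seq, poly(A) RNA fragments bound by an m6A antibody (IP) are sequenced alongside the unselected RNA (input), and each line had 2 libraries of either kind. HL60/ADR is named in the titles and column names alone, since the source and cell line fields give HL60 for every library, so each comparison rests on the titles. The study compared 1 resistant line with its parent, and its paper calls the libraries of a line biological duplicates, while the labels do not say whether they came from separate cultures, so the spread between them may be technical.

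m6A is the most common internal mark of messenger RNA. It is laid down by a methyltransferase complex around METTL3 and METTL14, can be removed by FTO and ALKBH5, and acts largely through proteins that bind it. The YTH proteins hold the methylated base directly in a pocket of their YTH domain. The IGF2BP proteins bind RNA through KH domains and are described as stabilizing m6A-marked transcripts. HNRNPA2B1 and HNRNPC are abundant nuclear proteins, and HNRNPC binds uridine tracts that become accessible where m6A loosens the local RNA structure.

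Expression was measured in the input libraries as FPKM, that is, fragments scaled to transcript length and to the number of mapped fragments. Of the 10 readers, 9 had a mean FPKM of 0.5 or more and were tested on log2(FPKM + 1). By limma with Benjamini-Hochberg adjustment over 13053 genes, 8 of the 9 fell and 1 rose in HL60/ADR at an adjusted p under 0.05. Among all tested genes, 48.8% passed as lower and 30.9% as higher. On this log2(FPKM + 1) scale no tested reader changed by over 2-fold, a limit passed by 13.8% of all tested genes as lower and 8.93% as higher. In plain FPKM, IGF2BP1 was at 48.4% of its HL60 level. In 8 readers both HL60/ADR libraries lay below both HL60 libraries and in 1 both lay above, against 54.4% and 36.0% of all tested genes. The median log2 fold change was -0.59 over the 9 readers and -0.18 over all tested genes. In bulk RNA, fewer cells of a type and less RNA per cell cannot be told apart.

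**Figure D1:**
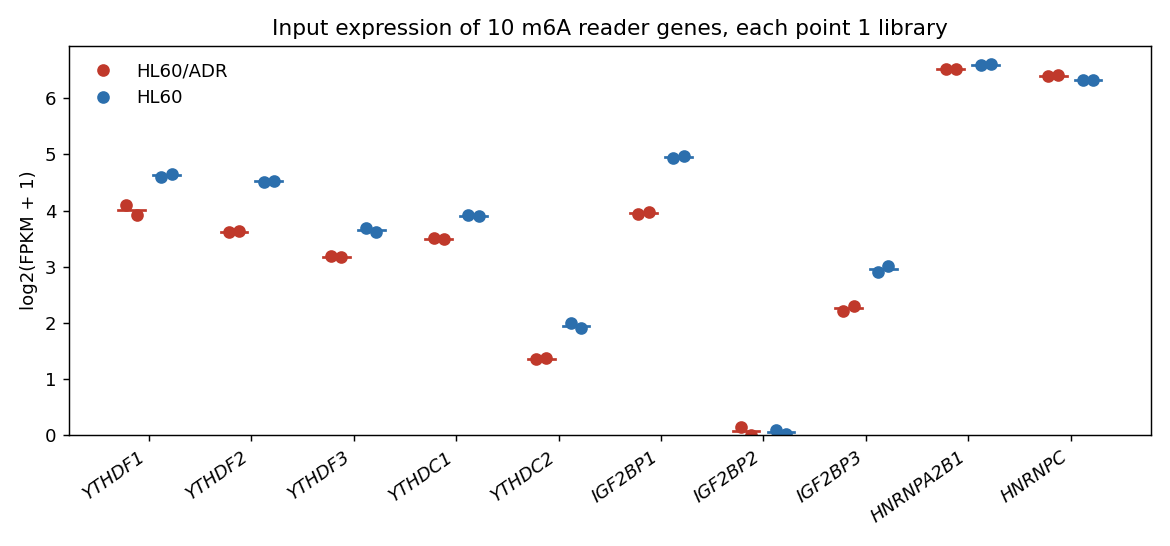
Expression of the 10 readers on the log2(FPKM + 1) scale. Each point is 1 input library, short lines are the means of the 2 libraries of a line, and HL60/ADR stands left of HL60 for each gene. All YTH genes, IGF2BP1 and IGF2BP3 lie lower in HL60/ADR, the 2 hnRNP genes lie close together in both lines, and IGF2BP2 lies near 0.

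The YTHDF proteins are cytoplasmic readers with closely similar sequences. YTHDF2 recruits the CCR4-NOT deadenylase to methylated transcripts and is known for promoting their decay. The gene (chr1:28736621-28769775, plus strand, GRCh38) had 11.3 and 11.4 FPKM in HL60/ADR, against 21.8 and 22.2 FPKM in HL60. Its HL60/ADR level was 51.6% of the HL60 level, and both HL60/ADR libraries lay well below both HL60 libraries (log2 fold change -0.90, SE 0.03, adjusted p = 2.82e-05, limma).

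YTHDF1, described as promoting the translation of methylated transcripts, lies at chr20:63195429-63216139 on the minus strand. It had 16.2 and 14.2 FPKM in HL60/ADR, against 23.4 and 24.1 FPKM in HL60. The libraries of the lines did not overlap, and the log2 fold change was -0.61 (SE 0.07, adjusted p = 0.00118, limma). YTHDF3, which acts together with the other YTHDF proteins, lies at chr8:63168553-63212786 on the plus strand. It had 8.11 and 8.04 FPKM in HL60/ADR, against 12.0 and 11.4 FPKM in HL60. The groups were again separate, with a log2 fold change of -0.48 (SE 0.04, adjusted p = 0.000402, limma).

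The 3 YTHDF genes together had 34.7 ± 1.42 FPKM in HL60/ADR and 57.4 ± 0.354 FPKM in HL60 (SD, n = 2 each), so the summed HL60/ADR level was 60.4% of that of HL60. YTHDF2 made up 31.8% and 33.8% of this sum in the HL60/ADR libraries, against 38.2% and 38.5% in the HL60 libraries. YTHDF1 made up 45.5% and 42.3% in HL60/ADR, against 40.9% and 41.8% in HL60. YTHDF3 made up 22.7% and 23.9% in HL60/ADR, against 20.9% and 19.7% in HL60. The balance of the paralogs was thus shifted away from YTHDF2 in both HL60/ADR libraries. With 2 libraries against 2, an exact two-sided permutation test of such a share cannot go below p = 0.333, so no test of the shares was made.

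**Figure D2:**
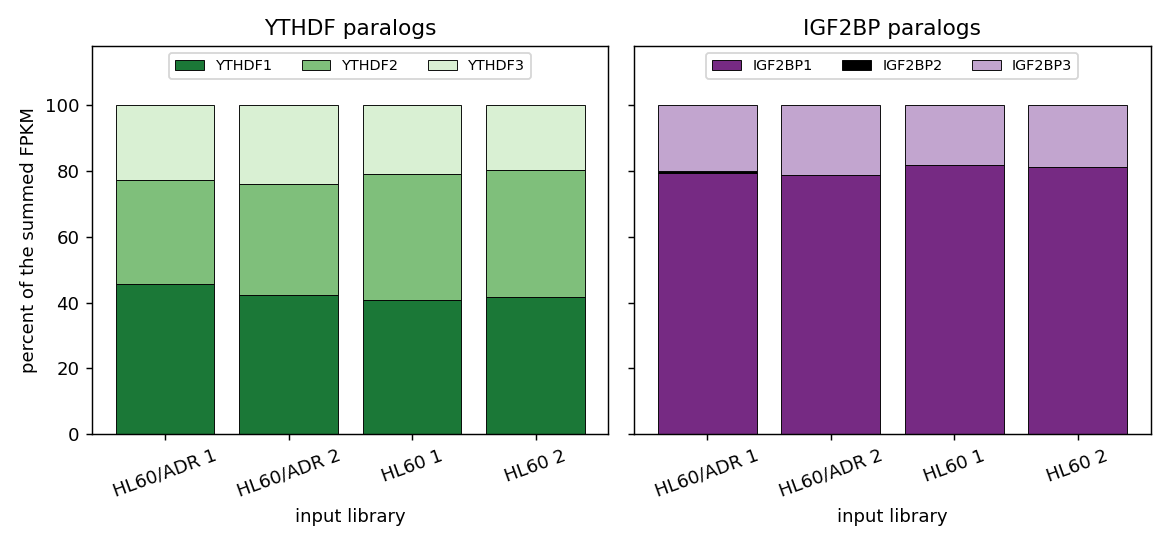
Shares of the YTHDF and IGF2BP paralogs in the summed FPKM of their family, in percent, for each input library (HL60/ADR libraries left, HL60 libraries right). The YTHDF2 segment is narrower in both HL60/ADR libraries, and IGF2BP2 takes at most 0.578% of its family in the 4 libraries.

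YTHDC1 is the nuclear YTH protein, known for roles in splicing and export of methylated transcripts. The gene (chr4:68310387-68350090, minus strand) had 10.4 and 10.3 FPKM in HL60/ADR, against 14.1 and 13.9 FPKM in HL60. This was the smallest change among the YTH genes, with a log2 fold change of -0.41 (SE 0.03, adjusted p = 0.000277, limma). YTHDC2, an RNA helicase that is needed for meiosis in mouse germ cells, lies at chr5:113513694-113595285 on the plus strand. It had 1.56 and 1.59 FPKM in HL60/ADR, against 2.99 and 2.77 FPKM in HL60. The HL60/ADR level was 54.7% of the HL60 level, but on the log2(FPKM + 1) scale, which understates changes of low genes, the log2 fold change was -0.59 (SE 0.06, adjusted p = 0.000793, limma). The lines did not overlap for either YTHDC gene.

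IGF2BP1 and IGF2BP3 are oncofetal: they are active in the embryo, low in most adult tissues and active again in many tumors, while IGF2BP2 is widely expressed in adult tissues. IGF2BP1, best known for protecting the MYC transcript from decay, had the largest change of the readers. The gene (chr17:48997385-49056145, plus strand) had 14.4 and 14.7 FPKM in HL60/ADR, against 29.5 and 30.5 FPKM in HL60. Its HL60/ADR level was 48.4% of the HL60 level in plain FPKM. On the log2(FPKM + 1) scale the log2 fold change was -0.998 (SE 0.03, adjusted p = 3.03e-05, limma), just short of the 2-fold limit. With a pseudocount of 0.5 in place of 1, or without HL60 library 1 or HL60/ADR library 2, the log2 fold change passed that limit. IGF2BP3 (chr7:23310209-23470491, minus strand) had 3.65 and 3.93 FPKM in HL60/ADR, against 6.55 and 7.06 FPKM in HL60. Both IGF2BP1 and IGF2BP3 had separate groups, and for IGF2BP3 the log2 fold change was -0.70 (SE 0.06, adjusted p = 0.000438, limma).

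IGF2BP2 (chr3:185643130-185825042, minus strand) was close to undetected and was not tested. It had 0.105 and 0 FPKM in HL60/ADR libraries 1 and 2, against 0.0704 and 0.0193 FPKM in HL60 libraries 1 and 2, so the lines overlapped. In both lines library 1 had the higher value. The same held for the summed FPKM of the 7 epithelial and fibroblast markers, 11.4 and 2.32 in HL60/ADR libraries 1 and 2, against 4.49 and 0.138 in HL60 libraries 1 and 2. Of these markers KRT18, an epithelial keratin, had 5.38 and 0.0398 FPKM in HL60/ADR, against 2.23 and 0 FPKM in HL60, and CDH1, epithelial cadherin, was listed at 0 in library 2 of both lines. The part of these markers in the IGF2BP2 values was not tested. The IGF2BP family together had 18.4 ± 0.370 FPKM in HL60/ADR and 36.9 ± 1.06 FPKM in HL60 (SD, n = 2 each), and IGF2BP1 made up 79.3% and 78.9% of it in HL60/ADR, against 81.7% and 81.2% in HL60.

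The hnRNP readers were the most abundant and the least changed. HNRNPA2B1, which is described as promoting the processing of primary microRNAs, lies at chr7:26173057-26201529 on the minus strand. It had 90.9 and 90.5 FPKM in HL60/ADR, against 95.4 and 96.1 FPKM in HL60 (log2 fold change -0.08, SE 0.02, adjusted p = 0.0151, limma). HNRNPC (chr14:21209136-21269494, minus strand) had 83.2 and 84.2 FPKM in HL60/ADR, against 79.6 and 79.3 FPKM in HL60 (log2 fold change 0.07, SE 0.02, adjusted p = 0.0201, limma). The groups were separate for both genes, but the HL60/ADR level was 94.8% of the HL60 level for HNRNPA2B1 and 105% for HNRNPC.

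These hnRNP calls depended on scaling, on single libraries and on the variance model: with trend = FALSE the limma adjusted p was 0.103 for HNRNPA2B1 and 0.115 for HNRNPC. When the median log2 difference of all tested genes was set to 0, HNRNPA2B1 was higher in HL60/ADR (0.10, adjusted p = 0.00550, limma), and with quantile normalization HNRNPC was lower (-0.13, adjusted p = 0.00301, limma). Neither was called without HL60 library 1, HL60 library 2 or HL60/ADR library 2, where the limma adjusted p was 0.0538, 0.0733 and 0.0565 for HNRNPA2B1 and 0.0756, 0.0856 and 0.0729 for HNRNPC. HNRNPC also shares sequence with processed copies elsewhere in the genome, and how reads were divided between them is not given in the sources used here. Its copy HNRNPCP2 had 21.2 and 17.9 FPKM in HL60/ADR, against 14.1 and 15.0 FPKM in HL60, so the HNRNPC values are uncertain. The hnRNP pair summed to 174.1 and 174.8 FPKM in HL60/ADR, against 175.0 and 175.5 FPKM in HL60. The other 8 readers summed to 65.7 and 64.2 FPKM in HL60/ADR, against 110.3 and 111.9 FPKM in HL60, so their HL60/ADR sum was 58.4% of that in HL60. By FPKM, HNRNPA2B1 and HNRNPC thus held 37.9% and 34.97% of the summed reader level in HL60/ADR, against 33.4% and 27.7% in HL60.

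**Figure D3:**
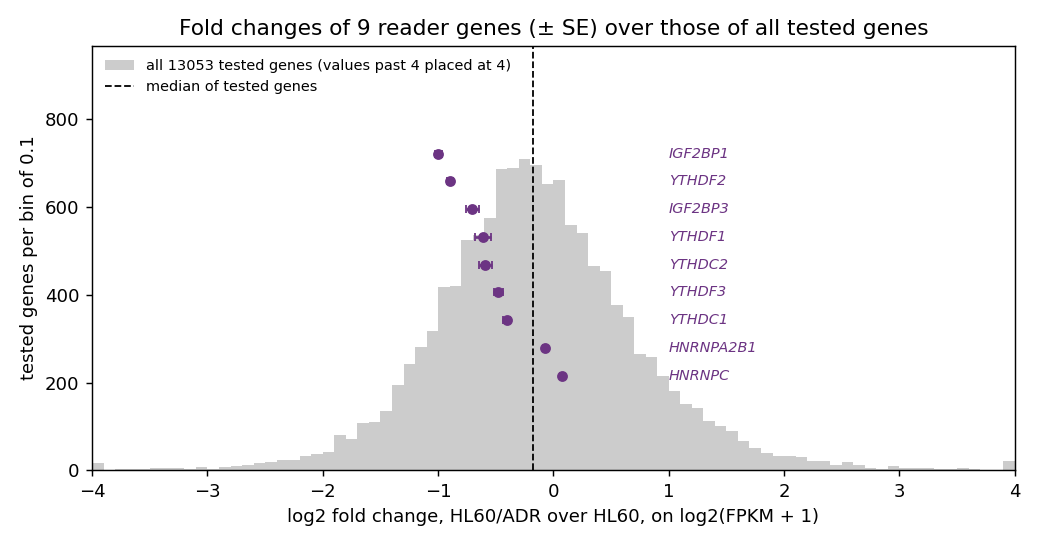
Log2 fold changes of the 9 tested readers (points, bars ± SE, heights arbitrary) over a histogram of those of all 13053 tested genes, with a dashed line at their median of -0.18. The 7 YTH and IGF2BP readers lie between -0.998 and -0.41, left of the median, and the 2 hnRNP genes lie right of it. Relative to that median their log2 fold changes were 0.10 for HNRNPA2B1 and 0.25 for HNRNPC.

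The order of the readers by level was much the same in both lines. HNRNPA2B1 was highest, followed by HNRNPC. In HL60, IGF2BP1 was the third, with both libraries above those of YTHDF1, while in HL60/ADR the IGF2BP1 libraries (14.4 and 14.7 FPKM) lay between the 2 YTHDF1 libraries (16.2 and 14.2 FPKM). YTHDF2, YTHDC1, YTHDF3, IGF2BP3, YTHDC2 and IGF2BP2 followed in this order in both lines, and no neighbours among these 6 overlapped within a line.

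Among the genes with a pattern most like IGF2BP1, by Euclidean distance of log2(FPKM + 1) over the 4 input libraries, were TOPBP1 (a DNA damage checkpoint scaffold, distance 0.0638) and LEO1 (a subunit of the PAF1 elongation complex, 0.0801). TOPBP1 had 14.6 and 14.2 FPKM in HL60/ADR, against 30.39 and 30.41 FPKM in HL60. Those most like HNRNPC were APP (the amyloid precursor protein, distance 0.0683), CDC37 (a co-chaperone of HSP90, 0.102) and NME2 (a nucleoside diphosphate kinase, 0.140). APP had 84.9 and 85.7 FPKM in HL60/ADR, against 81.2 and 82.1 FPKM in HL60.

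Genes that work beside the readers were described as lists, by the same limma test over all genes, and their counts stand beside the 48.8% of all tested genes that were lower and the 30.9% that were higher. Of 10 writers and erasers tested, 2 were higher and 7 lower in HL60/ADR, with a median log2 fold change of -0.44, beside -0.18 over all tested genes. METTL3, the catalytic subunit, had 14.8 and 15.1 FPKM in HL60/ADR, against 4.23 and 4.36 FPKM in HL60 (log2 fold change 1.59). It moved opposite to RBM15B, an adaptor of the same complex, which had 2.48 and 2.76 FPKM in HL60/ADR, against 6.86 and 7.21 FPKM in HL60 (log2 fold change -1.15).

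Of 11 other proteins described as m6A binders, 9 were tested, of which 2 were higher and 7 lower, with a median of -0.61. G3BP1, the stress granule nucleator, had 8.31 and 8.56 FPKM in HL60/ADR, against 28.3 and 27.7 FPKM in HL60 (log2 fold change -1.62), and LRPPRC, a regulator of mitochondrial messenger RNA, had a log2 fold change of -0.94. Among 17 partners of the YTH readers, which are subunits of CCR4-NOT and of RNase P/MRP, decay factors and export or splicing factors, 15 were tested, 2 were higher and 13 lower, with a median of -0.55. Of the 7 CCR4-NOT subunits on this list, 6 were lower, with log2 fold changes from -0.77 for CNOT1, the scaffold, to -0.17 for CNOT2, and 1 was higher, CNOT8 (0.91). The largest changes of this list were those of POP1, a subunit of RNase P/MRP (-1.71), SRSF10, a splicing factor (-1.58), UPF1, the decay helicase (-1.22), and SRSF3, a splicing and export factor (-1.01).

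Partners of the IGF2BP and hnRNP readers comprised 9 genes with 10 tested identifiers, since MATR3 is listed under 2. Of these 1 was higher and 7 lower, with a median of -0.59. DHX9, an RNA helicase found with IGF2BP1, had 18.3 and 18.0 FPKM in HL60/ADR, against 55.6 and 56.8 FPKM in HL60 (log2 fold change -1.58). DGCR8 and DROSHA, the microprocessor with which HNRNPA2B1 is described to work, had log2 fold changes of -1.57 and -1.32, and SYNCRIP, a partner of IGF2BP1, had -1.50.

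IGF2BP genes are themselves repressed by let-7 microRNAs. Of 8 oncofetal genes under let-7 control, 3 passed the level limit and all 3 were lower, where 48.8% of all tested genes were lower, with a median of -0.36. ARID3B, a transcription factor gene, had a log2 fold change of -0.36. The largest change was that of HMGA1, a chromatin protein, with 398.4 and 396.5 FPKM in HL60/ADR, against 529.6 and 530.3 FPKM in HL60 (log2 fold change -0.41). Of 10 transcripts reported as targets of the IGF2BP proteins, 8 were tested, 2 were higher and 6 lower, with a median of -0.32. MYC had 17.1 and 17.4 FPKM in HL60/ADR, against 109.0 and 110.5 FPKM in HL60 (log2 fold change -2.60). CCND1, cyclin D1, had 10.5 and 8.54 FPKM in HL60/ADR, against 2.14 and 1.11 FPKM in HL60 (log2 fold change 2.02), so the target list did not move one way.

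Cell type markers differed between the lines. All 5 azurophil granule genes, which mark promyelocytes, were higher, with summed FPKM of 1206 and 1240 in HL60/ADR, against 170.8 and 172.0 in HL60. Of 5 T cell markers 2 were tested and both were higher, with sums of 240.7 and 248.2 in HL60/ADR, against 31.2 and 31.6 in HL60, while CD3G and CD2 had at most 0.254 FPKM. None of 5 erythroid markers was found among the genes of the expression table. Of 5 B cell markers 2 were tested and both were lower. The B cell markers summed to 6.99 and 5.63 FPKM in HL60/ADR, against 17.8 and 18.2 FPKM in HL60. The part of these differences in the reader levels was not tested.

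The m6A peaks on the readers' own transcripts came from 1 peak list per line, called on the pooled replicates, so no replicate error exists for them and no test was made. Fold enrichment is the IP signal over input within a peak. In HL60/ADR the 27 reader peaks had a median fold enrichment of 4.90, beside 5.32 over all peaks of that list, and in HL60 the 30 reader peaks had 2.685, beside 3.86. All 10 readers carried at least 1 listed peak in each line. The paper also asks for a fold enrichment of at least 2. By that limit YTHDC2 had no peak in HL60/ADR (highest 1.97), and IGF2BP1 had no peak named for it in HL60 (highest 1.62). By the deposited annotation, 40.7% of the HL60/ADR and 40.0% of the HL60 reader peaks lay in 5′ UTRs, beside 21.9% of all peaks in HL60/ADR and 21.7% in HL60. A peak here can join several exonic blocks across introns and still has 1 region label. The peak with the largest block was labelled 5′ UTR in YTHDF2 and YTHDF3 but 3′ UTR in YTHDF1. HNRNPA2B1 alone gave 4 of the HL60 5′ UTR peaks, and some of these overlap each other. Of the HL60/ADR reader peaks 24 of 27 (88.9%, Wilson 95% interval 71.9% to 96.1%) shared at least 1 exonic base with an HL60 peak, and of the HL60 reader peaks 23 of 30 (76.7%, 59.1% to 88.2%) did so with an HL60/ADR peak, beside 72.9% of all peaks in HL60/ADR and 71.3% in HL60. These intervals cover counting error only and treat the peaks as independent. That assumption does not hold, since the peaks come from 10 genes and some HL60 peaks overlap each other.

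Peaks that overlapped 1 to 1 formed 21 pairs in 9 readers. Of these, 15 had the higher fold enrichment in HL60/ADR (71.4%, beside 68.0% of all 16544 pairs). The HL60/ADR value was over 2-fold higher in 4 pairs, or 19.0%, beside 19.0% of all pairs, and over 2-fold lower in 0, beside 4.81%. The median ratio was 1.49 over reader pairs and 1.27 over all pairs. Among genes whose log2 fold change in expression lay from -1.1 to -0.4, as for most readers, the 4297 pairs had a median log2 ratio of 0.39, and among genes from -0.1 to 0.1 the 1531 pairs had 0.35.

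**Figure D4:**
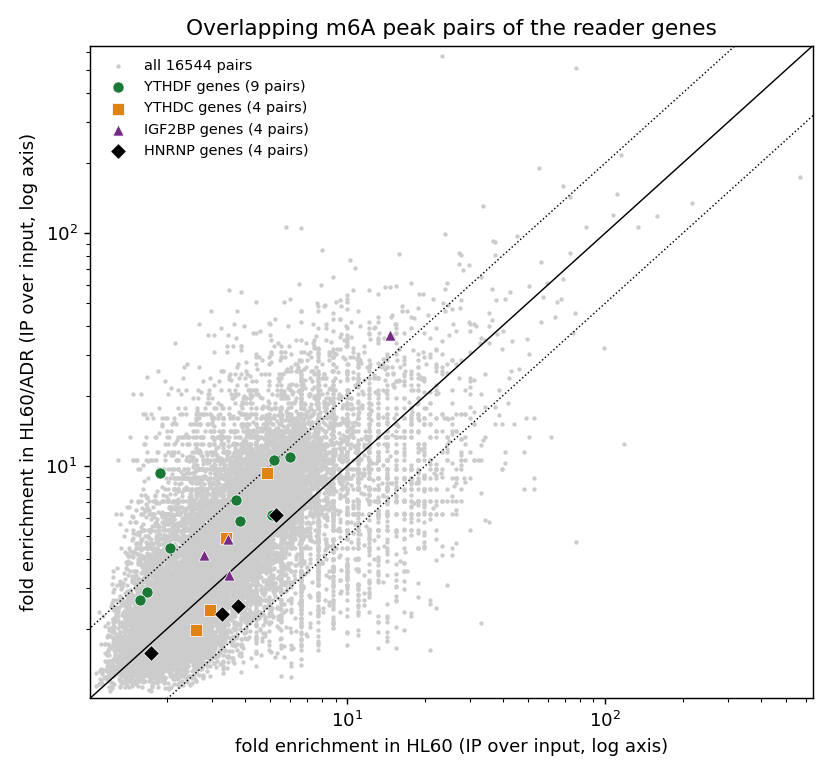
Fold enrichment in HL60/ADR (vertical) against HL60 (horizontal), both on log axes, for all 16544 pairs (grey) and the 21 reader pairs by family. The solid line marks equal values and the dotted lines 2-fold differences. All 9 YTHDF pairs lie above the solid line, and both HNRNPC pairs lie below it.

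All 9 pairs of the YTHDF genes had the higher value in HL60/ADR. Most of each YTHDF protein is encoded in a single long exon, and each YTHDF gene carried in both lines 1 peak with a block of 1481 to 1599 bases. For YTHDF1 this block had 1481 bases in HL60/ADR and 1521 in HL60, and the fold enrichment was 6.15 in HL60/ADR and 5.09 in HL60. For YTHDF2 the block had 1584 bases in HL60/ADR and 1570 in HL60, with 10.9 in HL60/ADR and 6.0 in HL60. For YTHDF3 it had 1599 bases in both lines, with 10.6 in HL60/ADR and 5.22 in HL60. The other YTHDF3 peaks lay at the start of the gene (9.31 in HL60/ADR and 1.88 in HL60), in a later 5′ UTR exon (2.66 in HL60/ADR and 1.57 in HL60) and in the 3′ UTR (5.80 in HL60/ADR and 3.83 in HL60). The peak at its start had the largest ratio of all reader pairs. The last peak of YTHDF1 reached the annotated 3′ end in both lines, with 7.14 in HL60/ADR and 3.69 in HL60. YTHDF2 had a peak close to its start (2.89 in HL60/ADR and 1.67 in HL60), one just downstream (4.43 in HL60/ADR and 2.06 in HL60) and one listed in HL60 alone, which was weak (1.25). The value of 4.43 was shared by 646 peaks of the HL60/ADR list, and the peak caller's log10 p there was only -2.7.

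YTHDC1 carried 3 peaks at nearly the same positions in both lines. The one that began at the gene start and spanned 6 blocks had a fold enrichment of 9.30 in HL60/ADR and 4.90 in HL60, the one in internal exons had 4.90 in HL60/ADR and 3.38 in HL60, and the 3′ UTR one had 2.40 in HL60/ADR and 2.93 in HL60. The order of the lines thus differed along the transcript. YTHDC2 had 1 pair near its 3′ end, with 1.97 in HL60/ADR and 2.58 in HL60, and 1 further HL60 peak of 1.67.

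**Figure D5:**
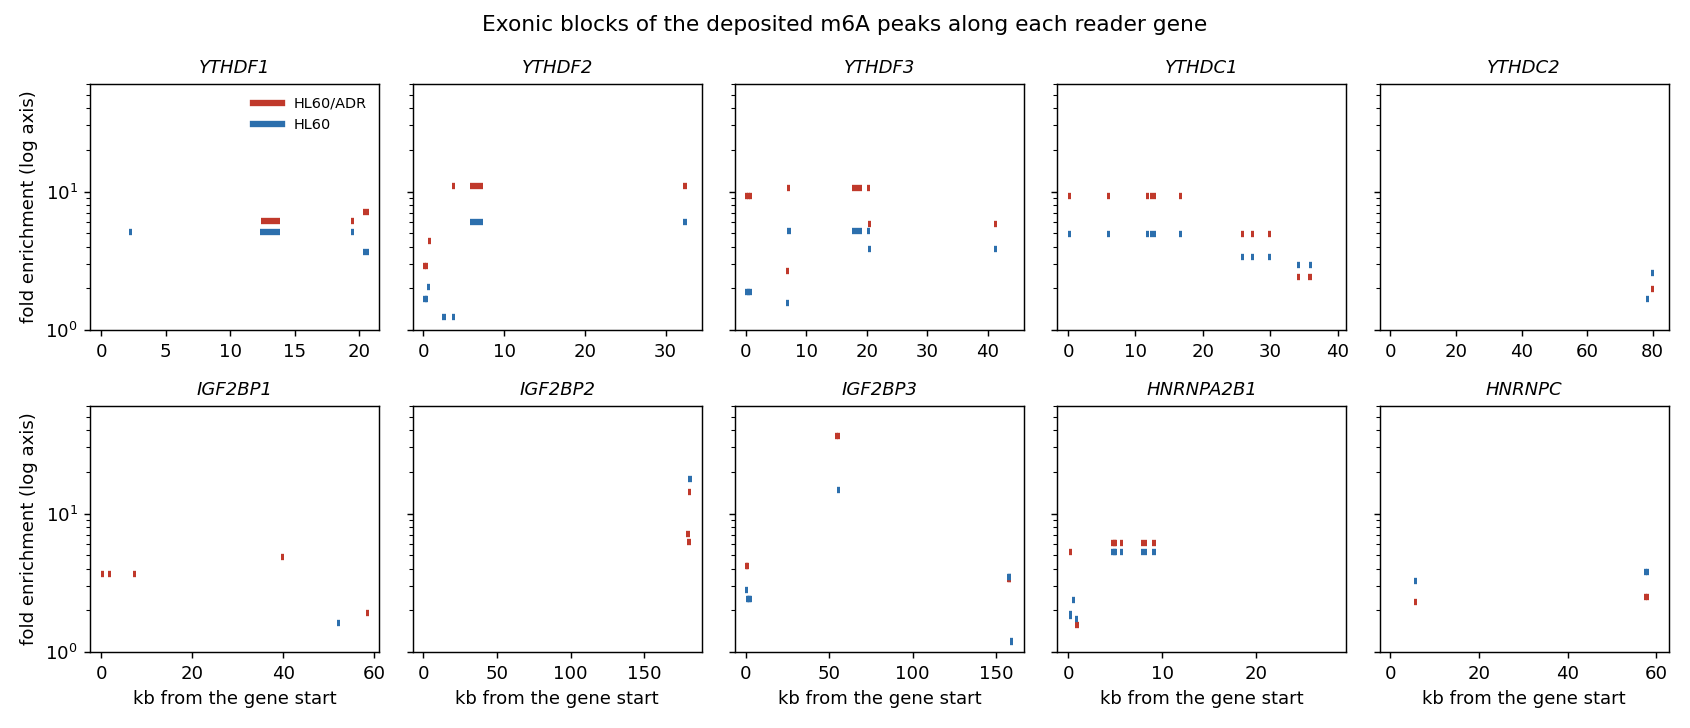
Exonic blocks of every peak named for a reader, by distance from the gene start in kb (horizontal) and fold enrichment of the whole peak (vertical, log axis), for HL60/ADR and HL60. Short blocks are drawn wider than they are so as to be visible, blocks at 1 height belong to 1 peak, and HL60 peaks over IGF2BP1 that the list names for another gene are not drawn. The long YTHDF blocks and the block sets of YTHDC1 and HNRNPA2B1 recur at the same places in both lines.

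For IGF2BP1 the list names 3 peaks in HL60/ADR, with a fold enrichment of 3.64 at the gene start, 4.88 within the gene and 1.92 in the 3′ UTR, and 1 in HL60, with 1.62 in another stretch of the 3′ UTR. Counted by position, 2 further HL60 peaks lay within the span of IGF2BP1 on its strand but carry the name AC091133. One of them was annotated to exon 6 of 15 of IGF2BP1 (7.73). The other (3.45) overlapped the HL60/ADR peak of 4.88, and the lists annotate both of these to a single-exon transcript of another gene identifier, so for this pair the 2 genes cannot be told apart. The different number of named peaks in the lines therefore depends in part on which gene the list names. IGF2BP3 had 3 pairs. The one with the highest fold enrichment lay in an exon, internal or last depending on the transcript the list gives. It had 36.4 in HL60/ADR, the highest of any reader peak there, and 14.7 in HL60. By the peak caller's log10 p it was weaker than the 3′ UTR pair. That score was -11.6 in HL60/ADR and -10.8 in HL60 for the exon pair, against -74.8 and -119 for the 3′ UTR pair. The pair at the gene start had 4.17 in HL60/ADR and 2.79 in HL60, and the 3′ UTR pair had 3.40 in HL60/ADR and 3.48 in HL60. Of its 3 remaining HL60 peaks, 2 in the 3′ UTR overlapped each other (1.20 and 1.19).

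The IGF2BP2 peaks rest on a gene with almost no input signal. Their fold enrichments were 14.2, 7.09 and 6.21 in HL60/ADR and 17.7 in HL60, all in the 3′ UTR. Exactly these values were shared by 315, 1408 and 1786 peaks of the HL60/ADR list and by 168 of the HL60 list.

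HNRNPA2B1 carried a peak of 7 blocks at identical coordinates in both lines, chr7:26192129-26196844, with a fold enrichment of 6.15 in HL60/ADR and 5.30 in HL60. Its log10 p, as the peak caller gave it, was -6110 in HL60/ADR and -5050 in HL60, which ranked 25 in the HL60/ADR list and 7 in the HL60 list. Around its 5′ end, HL60/ADR had peaks of 5.32 and 1.57, and HL60 had peaks of 1.84, 1.89, 2.37 and 1.74, of which the 1.84 and 1.89 ones overlapped each other. The gene CBX3 starts there on the opposite strand and had peaks of its own (6.21 in HL60/ADR and 1.93 in HL60). The library protocol used dUTP, which keeps the strand, but the strand setting of the peak calls is not given in the sources used here. Without it, signal of HNRNPA2B1 and CBX3 cannot be told apart in the HL60/ADR peak of 5.32 and the HL60 peaks of 1.84 and 1.89. The peaks of 1.57, 1.74 and 2.37 lay outside the listed span of CBX3, which begins at chr7:26201162. HNRNPC differed from the YTHDF genes in that both its pairs had the lower value in HL60/ADR, 2.32 in HL60/ADR and 3.28 in HL60 for the 5′ UTR, and 2.51 in HL60/ADR and 3.77 in HL60 for the 3′ UTR.

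Annotated starts were compared for 8 of the 10 readers, and at 3 of these a peak covered an annotated first transcribed base in both lines. Of these 3 peaks, only the YTHDC1 peak began at that base. The YTHDF2 peak also held a block upstream of it. The HNRNPA2B1 peak reached upstream to 26200779 in HL60/ADR and 26200809 in HL60, within a gene listed from 26201529. At YTHDF2 and HNRNPA2B1 the peak was thus not confined to transcripts that begin there. Antibodies against m6A also bind m6Am, a methylated adenosine that can stand next to the cap, so the first bases of these transcripts are shown, from RefSeq on GRCh38.p14, 5′ to 3′ on the transcribed strand with the first transcribed base in capitals. They lie at chr1:28736940-28736969 (plus strand, YTHDF2), chr4:68350061-68350090 (minus strand, YTHDC1) and chr7:26200717-26200746 (minus strand, HNRNPA2B1).
YTHDF2: Agagcgtcgccgagtcggagccggagcctg
YTHDC1: Atttcgggagcgggattgtttcgcgcagga
HNRNPA2B1: Agtagcagcagcgccgggtcccgtgcggag
All 3 begin with A, as do 44.4% of 35114 annotated starts. YTHDF2 has another annotated start upstream, which begins with C and lay under no peak. The peaks over the 3 starts had fold enrichments of 2.89 in HL60/ADR and 1.67 in HL60 for YTHDF2, 9.30 in HL60/ADR and 4.90 in HL60 for YTHDC1, and 1.57 in HL60/ADR and 1.74 in HL60 for HNRNPA2B1. These values describe whole peaks and not the first bases. The YTHDC1 peak held 1348 exonic bases in 6 blocks in HL60/ADR. For the YTHDF2 peak in HL60 the caller's log10 false discovery rate was only -1.18. In the first 50 bases, 6 forms of the m6A consensus were searched on the transcribed strand, namely GGACT, held by 4.90% of all windows, GAACT, held by 3.68%, AGACT, held by 4.23%, AAACT, held by 3.38%, GGACA, held by 4.86%, and GGACC, held by 5.39%. None of the 6 was in these 3 windows, while 24.0% of all windows held at least 1. HNRNPC, whose start lay under no peak, held AGACT. YTHDF3 and IGF2BP1 were left out of this comparison. In HL60/ADR a peak of each began at the listed gene start, so whether they share these features was not tested.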

How the data were processed

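MeRIP-seq IP and input libraries of HL60/ADR and HL60 (2 of each per line) were used. The authors used fastp for cleaning, HISAT2 for alignment to GRCh38 (Ensembl release 101), computed FPKM per gene and input library with StringTie, and called peaks with exomePeak on pooled replicates, annotated with ChIPseeker. The deposited peak lists give for each peak a ratio of IP over input (fold enrichment) and as deposited scores the log10 of the caller's p-value and false discovery rate; the deposited p-value column was not used. FPKM values did not fall on whole-read steps, so the depth behind them is unknown.

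Of 27996 genes, the 13053 whose mean FPKM reached 0.5 entered a two-sided limma test (version 3.58.1, R 4.3.3, trend = TRUE) of log2(FPKM + 1) by cell line, without further terms. The test was checked on simulated data. Peaks were compared by exonic blocks (at least 1 shared base) in Python 3.11.15 with pandas 2.3.3, numpy 2.4.6 and scipy 1.17.1, and matplotlib 3.10.9 drew the figures. Named genes were the readers, the 2 to 4 tested genes of each other list with the largest absolute change, and the 3 nearest genes of the readers with the largest change in each direction, of which 1 is not reported here; CNOT1, CNOT2, CNOT8, marker genes and neighbouring genes were added with their values seen. Members and lists were chosen with earlier results of these data known. The motifs of peaks were not analysed here.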

Additional observations from a re-analysis of the deposited data

How the results depend on the processing

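The 7 tested YTH and IGF2BP readers were lower and called in all 84 fits, that is, 7 genes under 12 settings (two-sided limma, largest adjusted p 0.0157). Of the other values recomputed for single genes, HNRNPA2B1 reversed to 0.10 with the median difference of tested genes set to 0, and HNRNPC to -0.13 with quantile normalization. The number of readers lower in HL60/ADR, 8 as reported, was 7 with the median set to 0 or with trend = FALSE, 9 with quantile normalization and 7 to 8 with 1 library left out. The number higher, 1 as reported, was 2 with the median set to 0, 0 with quantile normalization, 0 with trend = FALSE and 0 to 1 with 1 library left out. The number lower by over 2-fold, 0 as reported, was 1 with a pseudocount of 0.1, 1 with a pseudocount of 0.5 and 0 to 1 with 1 library left out, the gene being IGF2BP1. A line left with 1 library was assumed to vary like the other. Setting the median to 0 gave 5122 genes higher and 5174 lower in HL60/ADR over all genes, and quantile normalization 4913 and 5326, against 4034 and 6367 as reported. With a pseudocount of 0.1, 1778 genes were higher and 2712 lower by over 2-fold, against 1165 and 1798. Over the tested genes, the deviations of same-numbered libraries had a correlation of 0.043. This does not settle whether the libraries were paired, since IGF2BP2 and KRT18 were higher in library 1 of both lines. The fit with a replicate block still gave 8 readers lower and 1 higher, and 3978 genes higher and 6295 lower over all.

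With a stricter choice of peaks (fold enrichment from 4, false discovery rate up to 1e-05) 11 reader peaks stayed in HL60/ADR and 6 in HL60, and with fold enrichment from 2 there were 24 in HL60/ADR and 19 in HL60, against 27 in HL60/ADR and 30 in HL60 as reported, which turns the order. The median log2 ratio of reader pairs, 0.58 as reported, was 0.56 with fold enrichment from 2, 0.23 after division by the median ratio of all pairs, 0.67 from the highest peak of each gene, and 0.59 with pairs by whole spans, an alternative chosen after seeing the data. After that division, 1 pair was over 2-fold higher in HL60/ADR, against 4 as reported. The causes were not tested. Of 58 alternative values for counts and medians, 40 stayed within their limits. Peaks were pooled and the depth of single genes is unknown, so the precision of fold enrichments is not known.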

Other observations

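Genes that border or overlap the readers had values of their own, and were chosen after their values were seen. YTHDF3-AS1, an antisense gene beside the start of YTHDF3, had 1.03 and 0.495 FPKM in HL60/ADR, against 0.190 and 0.332 FPKM in HL60. CBX3, which starts opposite HNRNPA2B1 and encodes heterochromatin protein gamma, had 24.7 and 25.0 FPKM in HL60/ADR, against 39.6 and 39.8 FPKM in HL60. NFE2L3, a transcription factor gene whose 3′ UTR overlaps the span of HNRNPA2B1 on the opposite strand, had 1.65 and 1.47 FPKM in HL60/ADR, against 7.49 and 7.62 FPKM in HL60. Its strongest peak there had a fold enrichment of 7.92 in HL60/ADR and 7.91 in HL60. The dUTP protocol keeps the strand of reads, but whether the counting used it is not given in the sources used here.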
